A study of Homo sapiens with 4 samples.

Results

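The genes described here run mitosis: 52 genes for the cyclins and kinases that start and order cell division, the kinetochore, the mitotic kinesins, the spindle and cytokinesis, the chromosomal passenger complex, anaphase and chromosome condensation. They were taken as a fixed list. The annotated Ensembl transcripts of each gene (GENCODE 29) were summed and scaled to CPM, a gene's share of all deposited counts in the library, and a gene was kept with at least 1 CPM in 1 library. All 52 of 52 were kept, out of 15989 genes that reached this level. They were read in 6 role groups, with 11 cyclins and mitotic kinases, 11 checkpoint and kinetochore genes, 9 kinesins, 9 spindle and cytokinesis genes, 10 genes of the chromosomal passenger complex, anaphase and condensin, and the pair FOXM1 and MKI67.

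The study sequenced poly(A)-selected RNA from AC16, an established human line that came from the fusion of adult ventricular cells with a transformed fibroblast line and that the labels call cardiomyocyte. Cells were untreated (0 min) or held in doxorubicin at 10 nM for 10, 30 or 360 min, with 1 library per time and 4 libraries in all. Doxorubicin, an anthracycline, slips between DNA bases and locks topoisomerase II onto DNA. To dose the cells, the medium with serum was taken off and replaced, after a rinse, by DMEM without serum that held the drug. Whether 0 min cells went through that change is not stated in the labels, so the drug, the loss of serum and the handling cannot be told apart. Having 1 library per time, the design allows no replicate check and no test across samples. The range beside each fold or ratio is its 95% counting interval (Clopper-Pearson, on the counts of 2 libraries). It covers counting error only and says nothing of variation between cultures. No molecular identifiers were recorded, so copies of the same molecule could not be recognised and the interval may be too narrow. In a culture of mixed cycle stages, fewer cells in mitosis and less mitotic RNA per cell cannot be told apart.

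Most mitotic genes are transcribed late in the cell cycle, shortly before division, and are held silent earlier in the cycle and in resting cells. Cyclin A and the B cyclins activate CDK1 to drive entry into mitosis, the kinetochore ties each chromosome to spindle microtubules and signals to the checkpoint, and kinesins build the spindle and the midzone. Many of their promoters carry a cell cycle homology region (CHR), an element that MuvB complexes bind, and CCAAT boxes, which NF-Y binds. FOXM1 and B-Myb act with MuvB at such genes when they are on.

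These promoter elements were read in the RefSeq windows (GRCh38.p14) that run from 250 bases before to 50 bases after a gene's start. The table held a window for 44 members and none for AURKA, TTK, BUB3, KNL1, TPX2, BIRC5, UBE2C and FOXM1. The CHR letters searched were TTTGAA and TTCGAA, the CCAAT letters were CCAAT, and both strands were read. CHR letters lay in 33 of the 44 windows (75%), against 16.6% of all 27305 windows of this length. CCAAT letters lay in 34 (77.3%), against 35.7% of all windows. Both were found in 27 (61.4%, against 6.58%), and neither in 4 (9.09%, against 54.3%). CHR letters that began within 50 bases of the start were present in 29 (65.9%, against 5.05%). E2F letters (TTTCCCGC or TTTGGCGC, either strand) were found in 3 (6.82%, against 2.31%). All 8 spindle and cytokinesis genes with a window held CHR letters, as did 7 of 9 kinesins, 7 of 9 checkpoint and kinetochore genes, 5 of 9 cyclins and kinases and 5 of 8 genes of the chromosomal passenger complex, anaphase and condensin. A match is a description of the letters and not evidence of a bound site. The 8 stretches that follow show what the shared letters look like in members described later. CDK1 (chr10:60778151-60778330, plus strand), ZWINT (chr10:56361276-56361379, minus strand), KIF4A (chrX:70289984-70290089, plus strand), KIF11 (chr10:92593010-92593129, plus strand), CDC20 (chr1:43358861-43358954, plus strand) and MKI67 (chr10:128126424-128126543, minus strand) hold both kinds of letters. ESPL1 (chr12:53268179-53268298, plus strand) also holds both, and CDC25C (chr5:138338356-138338475, minus strand) holds neither. Each is written 5′ to 3′ on the gene's strand and lies upstream of the RefSeq start and outside every GENCODE 29 exon. Capitals mark CHR and CCAAT matches on either strand, and in MKI67 a CHR match and a CCAAT match share a letter.
CDK1: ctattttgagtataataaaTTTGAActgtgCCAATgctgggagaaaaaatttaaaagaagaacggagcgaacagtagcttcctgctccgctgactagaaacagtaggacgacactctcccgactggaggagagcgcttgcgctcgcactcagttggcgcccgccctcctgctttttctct
ZWINT: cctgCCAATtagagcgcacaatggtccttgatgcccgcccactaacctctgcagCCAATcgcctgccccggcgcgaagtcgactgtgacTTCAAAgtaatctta
KIF4A: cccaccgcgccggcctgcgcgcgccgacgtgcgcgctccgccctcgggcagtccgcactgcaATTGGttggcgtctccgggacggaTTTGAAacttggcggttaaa
KIF11: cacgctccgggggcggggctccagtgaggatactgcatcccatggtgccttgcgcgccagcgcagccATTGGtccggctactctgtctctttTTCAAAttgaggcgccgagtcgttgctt
CDC20: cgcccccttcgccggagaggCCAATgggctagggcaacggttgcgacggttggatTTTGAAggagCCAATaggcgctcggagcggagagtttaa
MKI67: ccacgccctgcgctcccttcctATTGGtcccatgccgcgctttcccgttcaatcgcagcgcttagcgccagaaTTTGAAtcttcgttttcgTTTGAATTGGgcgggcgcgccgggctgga
ESPL1: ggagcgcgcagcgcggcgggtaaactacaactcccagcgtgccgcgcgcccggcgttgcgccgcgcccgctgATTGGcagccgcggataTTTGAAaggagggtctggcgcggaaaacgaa
CDC25C: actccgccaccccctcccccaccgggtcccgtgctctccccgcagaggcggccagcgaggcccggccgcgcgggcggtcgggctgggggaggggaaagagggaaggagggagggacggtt

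The 4 libraries held 55156612 to 56875881 deposited counts, worth about 13789153 to 14218970 read pairs when a pair is taken as 4 counts. Annotated transcripts took 88.2% to 89.2% of counts, models made by the authors' assembly took 10.7% to 11.7%, and mitochondrial genes took 3.83% to 4.20%. The 10 min library stood apart: 29129 loci had counts there, against 27314 to 27461 in the other libraries, and more genes differed from 0 min than at the later times. Of 13 cardiomyocyte markers, 7 were under 1 CPM in every library (TNNT2, TNNI3, MYH6, MYH7, ACTN2, NPPA and PLN). Summed fibroblast markers were highest at 10 min (10530, 13796, 8990 and 8904 CPM at 0, 10, 30 and 360 min), although 5 of these 11 were under 1 CPM in every library (COL3A1, THY1, DCN, LUM and POSTN). Endothelial markers summed to 4.54 to 11.7 CPM and immune markers to 29.8 to 57.7 CPM, both highest at 10 min and mostly from 1 gene each, VWF (10.5 CPM at 10 min) and CD68 (56.2 CPM), with PECAM1, KDR, PTPRC and CD14 at or under 0.22 CPM. Cardiomyocyte markers summed to 111.5, 136, 208 and 147 CPM, highest at 30 min. Most of that 30 min sum was 1 gene, NPPB (37.1, 56.3, 122 and 61.5 CPM). Epithelial markers summed to 471 to 522 CPM. The epithelial sums were mostly KRT8 and KRT18, with EPCAM, CDH1 and KRT19 under 1 CPM in every library. The part of these levels in the results was not tested.

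The mitosis genes were lower at 10 min than in any other library. Their summed level was 5438 CPM at 0 min, 2412 CPM at 10 min, 6018 CPM at 30 min and 5707 CPM at 360 min, so the 10 min library had 2.25-fold less than the untreated one and the 2 later libraries lay slightly above it. Of the 52 genes, 51 had a ratio under 1 at 10 min. A gene was called different between 2 libraries when its CPM differed at least 2-fold, with at least 5 CPM in 1 of them and a counting interval that excluded 1. By this rule 35 of 52 (67.3%) were lower and 1 was higher at 10 against 0 min. Over all 11892 genes compared, 6.85% were lower and 7.69% higher. The members' median log2 ratio was -1.17, with an interquartile range from -1.36 to -0.93, beside a median of -0.04 over all genes compared. Among 7405 other genes whose 0 min level fell in the members' range from 18.0 to 465 CPM, leaving aside ASPM, 6.94% were lower and the median log2 ratio was -0.15. The lowest of the 4 libraries was the 10 min one for 50 of 52 members, the exceptions being ASPM and INCENP, whose annotated values are taken up with their assembled models.

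**Figure D1:**
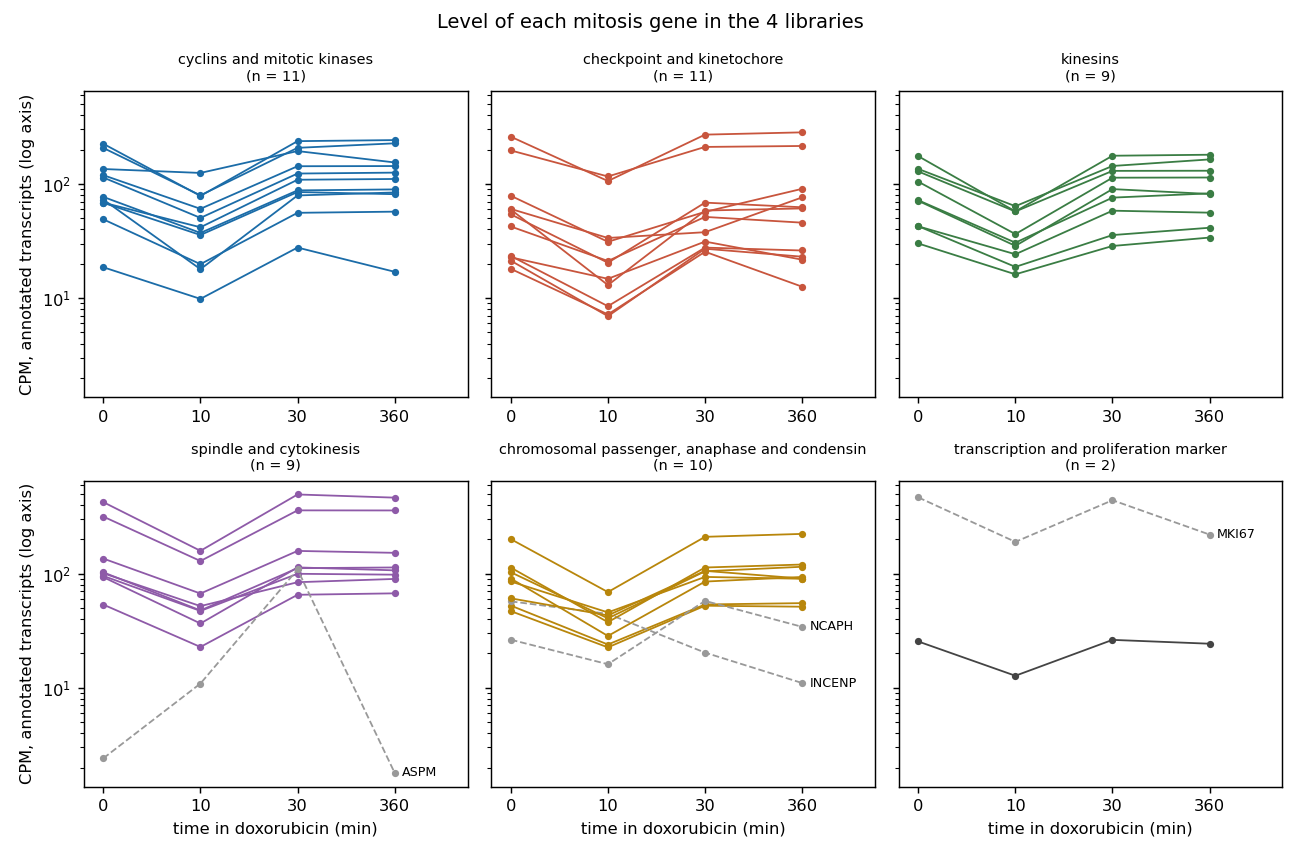
CPM of annotated transcripts (log axis) of each of the 52 genes at 0, 10, 30 and 360 min, 1 library per point, in a panel for each role group. Nearly all lines dip at 10 min and return at 30 min; the dashed grey lines are ASPM, INCENP, MKI67 and NCAPH, whose counts moved between annotated and assembled models.

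The level at which these genes stood in untreated cells ranged widely. Per length of transcript, a scale on which genes can be compared, the highest levels at 0 min were those of the checkpoint protein BUB3 (299.8), the ubiquitin-conjugating enzyme UBE2C (299) and the contractile ring scaffold ANLN (299). CDC20 (277), CCNB1 (277), PTTG1 (229) and TPX2 (207) followed. Near the bottom, ASPM aside, were the motor proteins CENPE (6.74), KIF14 (14.1) and KIF15 (15.1). These levels count annotated transcripts only. Assembled models held 66.3% of the CENPE locus at 0 min and none of KIF14 or KIF15, so the place of CENPE is uncertain. Neighbours in this order cannot be separated without replicates.

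Among the cyclins and mitotic kinases, 6 of 11 were called lower at 10 min and none higher, with a median log2 ratio of -1.05. CCNB1, cyclin B1 (chromosome 5, 69167010 to 69178245, plus strand), stood at 224.7, 78.5, 237 and 242 CPM at 0, 10, 30 and 360 min. It was 2.86-fold lower at 10 min (2.67 to 3.07), while the 30 and 360 min libraries stood at 1.06 and 1.08 of the untreated level. CCNA2, cyclin A2, which partners CDK2 and then CDK1, had the same course with 206.6, 79.4, 207 and 227 CPM, a 2.60-fold lower value at 10 min (2.43 to 2.79). CCNB2, cyclin B2, was at 68.3, 35.7, 84.9 and 81.3 CPM and 1.91-fold lower at 10 min (1.72 to 2.14), short of the 2-fold rule. So all 3 cyclins had their lowest value in the 10 min library and their 30 and 360 min values at or above the untreated one.

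CDK1 (chromosome 10, 60778331 to 60794852, plus strand), the kinase that these cyclins activate and whose upstream stretch is printed above, was at 73.0, 17.9, 79.3 and 84.2 CPM. Its annotated transcripts were 4.08-fold lower at 10 min (3.55 to 4.70), which made it the second lowest ratio of all members. This size rests on how the reads were shared among models: assembled models held 9.78% of the locus at 0 min and 58.3% at 10 min. With these included CDK1 stood at 80.9, 43.0, 91.7 and 97.2 CPM, 1.88-fold lower at 10 min (1.70 to 2.08) and no longer called.

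TTK, the checkpoint kinase also known as MPS1, was at 49.0, 19.8, 55.8 and 57.2 CPM and 2.47-fold lower at 10 min (2.14 to 2.84). PLK1, polo-like kinase 1, which acts at centrosomes, kinetochores and the midzone, was at 113.8, 50.4, 123 and 126 CPM and 2.26-fold lower (2.07 to 2.47). BUB1, a kinetochore kinase, was at 119.3, 60.5, 143 and 143 CPM and 1.97-fold lower (1.81 to 2.14), just outside the rule. Its relative BUB1B (77.0, 37.2, 87.8 and 89.5 CPM) was just inside it at 2.07-fold (1.86 to 2.30), though not per length (52.4 and 26.8). Over the whole locus both were called lower, BUB1 at 2.026-fold (1.865 to 2.202) and BUB1B at 2.037-fold (1.836 to 2.261). AURKA, the centrosome and spindle kinase Aurora A, was at 68.6, 41.7, 109 and 111 CPM. It was 1.64-fold lower at 10 min (1.48 to 1.82) and, at 30 and 360 min, stood 1.59-fold (1.46 to 1.72) and 1.61-fold (1.49 to 1.75) above the untreated library, under the 2-fold rule. CDC25C, a phosphatase that activates CDK1, had 18.6, 9.84, 27.7 and 17.0 CPM and a 1.89-fold lower value (1.53 to 2.34). CDC25B, another such phosphatase, differed least of all members at 10 min by annotated transcripts, with 135, 125, 194 and 154 CPM and a 1.08-fold lower value (1.01 to 1.16).

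**Figure D2:**
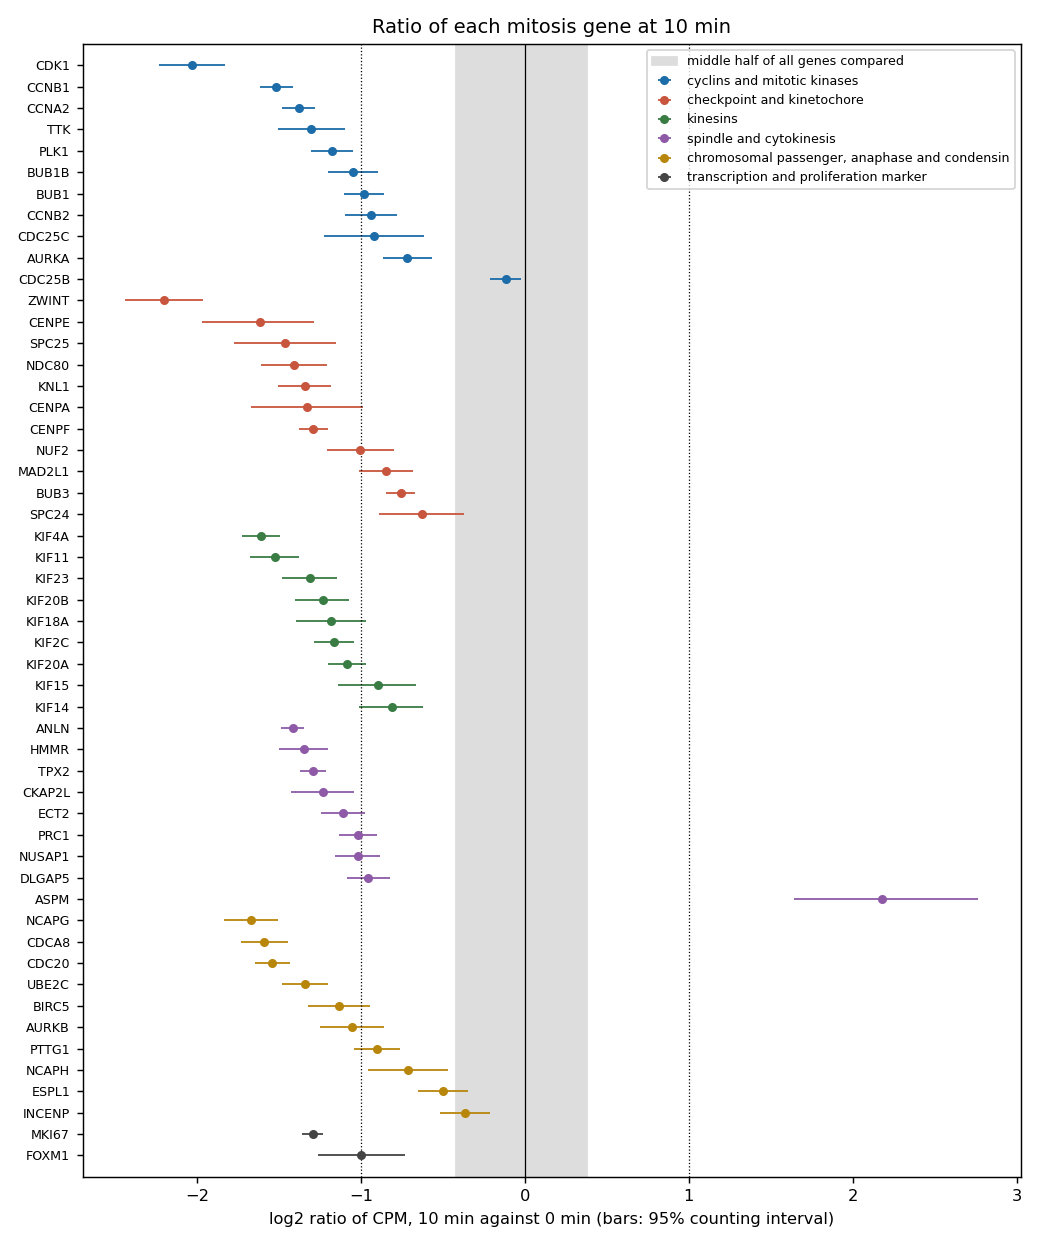
Log2 ratio of CPM at 10 against 0 min for each of the 52 genes by role group, with 95% counting intervals as bars, dotted lines at 2-fold and the interquartile range of all genes compared in grey. All genes but ASPM lie left of 0, from -2.20 for ZWINT to -0.11 for CDC25B.

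Of the checkpoint and kinetochore genes, 8 of 11 were called lower at 10 min and none higher, with a median log2 ratio of -1.33. ZWINT (chromosome 10, 56357228 to 56361275, minus strand), an outer kinetochore protein that helps recruit the ZW10 complex, stood at 59.7, 13.0, 58.5 and 61.0 CPM. It was 4.59-fold lower at 10 min (3.90 to 5.41), the lowest ratio of all members, and its 30 and 360 min values were 0.98 and 1.02 of the untreated one. No assembled model drew counts from ZWINT, so its whole-locus value is the same. NDC80, the microtubule-binding subunit that names its complex, was at 54.2, 20.4, 68.6 and 62.4 CPM and 2.66-fold lower (2.31 to 3.05). Its partner SPC25 was at 23.4, 8.49, 27.7 and 26.1 CPM and 2.75-fold lower (2.22 to 3.42), and NUF2, the third subunit, was at 42.4, 21.1, 51.4 and 45.8 CPM and 2.01-fold lower (1.74 to 2.31), short of the rule per length (55.8 and 28.98). The fourth, SPC24, had 22.8, 14.8, 31.3 and 21.7 CPM and was 1.54-fold lower (1.29 to 1.85), the least of the group. With assembled models SPC24 was at 22.8, 21.5, 32.6 and 40.0 CPM and 1.06-fold lower at 10 min (0.90 to 1.24), an interval that includes 1.

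KNL1, the kinetochore scaffold on which BUB proteins dock, was at 78.8, 31.1, 57.0 and 90.6 CPM and 2.53-fold lower at 10 min (2.27 to 2.84). Its 30 min value lay between the others, at 0.72 of the untreated level (0.66 to 0.79). CENPE, a kinetochore motor that moves chromosomes to the spindle equator, was at 21.3, 6.94, 27.1 and 23.0 CPM and 3.06-fold lower (2.44 to 3.91). Assembled models held 60.1% to 75.9% of the CENPE locus, and with them it was 2.19-fold lower (1.94 to 2.47). CENPF, a large kinetochore protein that is one of the more abundant in counts, was at 259, 106, 270 and 283 CPM and 2.45-fold lower (2.30 to 2.60). CENPA (chromosome 2, 26764289 to 26801067, plus strand), the histone variant that marks centromeres, was at 18.0, 7.20, 25.5 and 12.6 CPM and 2.51-fold lower (1.98 to 3.19). It shares its assembly locus with SLC35F6, so it has no whole-locus value, and 6.96% of its exon bases lie in that gene. SLC35F6 itself was at 59.8, 15.7, 59.0 and 58.9 CPM. MAD2L1, the checkpoint protein MAD2, had 60.4, 33.6, 37.8 and 76.2 CPM, 1.80-fold lower at 10 min (1.61 to 2.02). Its low 30 min value was not seen for the whole locus, where assembled models then held 56.2% and the level was 73.6, 38.1, 86.3 and 76.3 CPM. BUB3, which docks BUB1 and BUB1B at kinetochores, was at 196.5, 116, 211 and 215 CPM and 1.69-fold lower (1.59 to 1.80), outside the rule.

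Of the 9 kinesins, 7 were called lower at 10 min, all 9 had intervals under 1, and their log2 ratios ran from -1.61 to -0.81 with a median of -1.19. KIF4A (chromosome X, 70290090 to 70420832, plus strand), a chromosome-bound motor of the midzone, was at 175, 57.5, 177 and 180.2 CPM and 3.05-fold lower (2.81 to 3.31). Its 30 and 360 min values were within 1.03-fold of the untreated one. KIF11, also called Eg5, which pushes spindle poles apart, was at 104.6, 36.4, 113 and 114 CPM and 2.88-fold lower (2.60 to 3.19). KIF23, the motor of the centralspindlin complex, was at 71.1, 28.7, 90.1 and 81.6 CPM and 2.48-fold lower (2.21 to 2.80). KIF20B and KIF18A, a cytokinesis motor and a motor that dampens chromosome oscillation, were 2.35-fold (2.10 to 2.64) and 2.27-fold (1.96 to 2.63) lower, the latter short of the rule per length (28.9 at 0 and 15.8 at 10 min). KIF2C, which depolymerises microtubules at centromeres, was at 129, 57.4, 130.1 and 130.5 CPM and 2.24-fold lower (2.06 to 2.44), and KIF20A, a cytokinesis motor, was at 135, 63.8, 144 and 164 CPM and 2.12-fold lower (1.96 to 2.30). KIF14 was least different, at 42.5, 24.2, 58.3 and 56.0 CPM and 1.76-fold lower (1.54 to 2.01), with KIF15 next at 1.86-fold (1.59 to 2.21). The near copy KIF4B was highest at 30 min, at 0.253 CPM.

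In the spindle and cytokinesis group 7 of 9 were called lower and 1, ASPM, higher, with a median log2 ratio of -1.11. ANLN (chromosome 7, 36389806 to 36453791, plus strand), anillin, which organises the contractile ring, was at 422, 158, 493 and 462.5 CPM and 2.67-fold lower at 10 min (2.54 to 2.80). TPX2, which activates Aurora A on the spindle, was at 315.5, 129, 358 and 357 CPM and 2.45-fold lower (2.32 to 2.59). HMMR, a spindle-associated hyaluronan receptor, was at 93.0, 36.5, 113 and 107 CPM and 2.55-fold lower (2.30 to 2.82). In each of these 3 genes the 30 and 360 min libraries lay above the untreated one, by 1.10- to 1.22-fold. CKAP2L, a spindle protein, was at 53.5, 22.8, 65.2 and 67.1 CPM and 2.35-fold lower (2.06 to 2.69). ECT2, the exchange factor that switches on RhoA for cytokinesis, was 2.16-fold lower (1.97 to 2.37). PRC1, which bundles midzone microtubules, and NUSAP1, a spindle protein, were each 2.03-fold lower, with intervals of 1.87 to 2.19 and 1.85 to 2.23, and PRC1 was short of the rule per length (135.6 and 68.8). Of the exon bases of PRC1 and NUSAP1, 57.6% and 62.2% lie in another gene model on the same strand, but those models, AC068831.7 and AC087721.2, were listed at 0 in every library. DLGAP5, a spindle assembly factor, was at 101, 51.9, 84.0 and 89.7 CPM and 1.94-fold lower (1.77 to 2.12), the smallest difference of the group. Its 30 and 360 min values under the untreated one were not seen for the whole locus. There assembled models held 29.6% at 30 min and 18.7% at 360 min, and the level was 101, 52.0, 119 and 110 CPM.

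Of the chromosomal passenger complex, anaphase and condensin genes, 6 of 10 were called lower at 10 min and none higher, with a median log2 ratio of -1.09. NCAPG (chromosome 4, 17810902 to 17844862, plus strand), a condensin I subunit, was at 90.5, 28.4, 85.1 and 93.4 CPM and 3.19-fold lower (2.84 to 3.57). Part of it, 33.1% of exon bases, overlaps LCORL on the other strand, and strand use in counting is not given, so its value is uncertain; LCORL ran from 17.7 to 25.04 CPM. CDCA8, the passenger subunit borealin, was at 113, 37.5, 113 and 120 CPM and 3.01-fold lower (2.72 to 3.32). CDC20 (chromosome 1, 43358955 to 43363203, plus strand), which activates the anaphase promoting complex, was at 200.3, 68.8, 209.8 and 223 CPM and 2.91-fold lower (2.70 to 3.13). UBE2C, the ubiquitin-conjugating enzyme of that complex, was at 103, 40.5, 105 and 115 CPM and 2.53-fold lower (2.30 to 2.79). For CDCA8, CDC20 and UBE2C the 30 and 360 min libraries lay within 1.12-fold of the untreated one.

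The other passenger subunits were lower by smaller folds. BIRC5, survivin, was at 52.4, 23.9, 53.6 and 55.1 CPM and 2.19-fold lower (1.93 to 2.50). Per length it stood at 57.6 and 39.6 at 0 and 10 min, a difference under the 2-fold rule. AURKB, Aurora B, the kinase of the complex, was at 46.9, 22.6, 52.3 and 51.2 CPM and 2.08-fold lower (1.81 to 2.38), and 1.82-fold lower (1.60 to 2.06) over its whole locus, short of the rule, as were its per-length levels of 112 and 58.8. PTTG1, securin, was at 85.3, 45.7, 93.4 and 90.0 CPM and 1.87-fold lower (1.69 to 2.06), while its copies PTTG2 and PTTG3P did not exceed 0.04 CPM. ESPL1, separase, the protease that securin holds in check, was at 60.7, 43.0, 106 and 90.4 CPM. It was 1.41-fold lower at 10 min (1.27 to 1.57) and 1.74-fold (1.60 to 1.90) and 1.49-fold (1.36 to 1.63) above the untreated level at 30 and 360 min. Over its whole locus, where assembled models held 25.8% at 0 min and at most 6.6% later, ESPL1 was 1.90-fold lower at 10 min (1.72 to 2.10) and 1.32-fold and 1.18-fold higher at 30 and 360 min.

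MKI67 (chromosome 10, 128096659 to 128126385, minus strand), which encodes the Ki-67 antigen that coats mitotic chromosomes and marks cycling cells, was at 465, 189.5, 439 and 219.5 CPM. It was 2.45-fold lower at 10 min (2.34 to 2.57). FOXM1, a transcription factor of late cell cycle genes, was at 25.4, 12.7, 26.3 and 24.3 CPM and 1.995-fold lower (1.66 to 2.40), just short of the rule. Assembled models held 80.2% to 87.2% of the FOXM1 locus in every library, and with them it was at 128.5, 78.0, 176 and 189 CPM, 1.65-fold lower at 10 min (1.53 to 1.78). Of its exon bases, 15.9% overlap ITFG2 on the other strand, so FOXM1 is uncertain too.

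In the 30 and 360 min libraries most members stood near the untreated level, more often above it than below. Ratios to 0 min were above 1 for 43 of 52 members at each time, beside 5628 of 11533 genes at 30 min and 5932 of 11511 at 360 min. Against 0 min, 1 of 52 was lower (INCENP) and 2 were higher (ASPM and NCAPH), with a median log2 ratio of 0.12; over all genes 3.25% were lower and 3.55% higher. At 360 min 2 were lower (INCENP and MKI67) and none higher, with a median of 0.14, and over all genes 3.34% were lower and 3.26% higher. These shares of members, at most 3.85%, were close to those of all genes. Between the 10 and 30 min libraries 44 of 52 were higher at 30 min and 1, INCENP, was lower, with a median log2 ratio of 1.30, beside 6.86% higher and 7.54% lower over all genes. The comparisons at 10, 30 and 360 min share the 0 min library, and the step from 10 to 30 min shares the 10 min library with the first, so they are not independent. The highest library was the 360 min one for 26 members, the 30 min one for 22 and the 0 min one for 4. Group medians at 30 and 360 min ran from 0.05 to 0.24 and from 0.11 to 0.21 on the log2 scale, FOXM1 and MKI67 aside, so no group as a whole stood far from its untreated level.

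A looser rule of 1.5-fold named the members nearest to a call. At 10 min it called 48 lower, all but ASPM, CDC25B, INCENP and ESPL1, and 1 higher, ASPM, beside 17% and 16.5% of all genes. At 30 min it called 2 lower (INCENP and MAD2L1) and 4 higher (ASPM, NCAPH, ESPL1 and AURKA), beside 7.66% and 8.26%, and at 360 min 2 lower (INCENP and MKI67) and 1 higher (AURKA), beside 6.99% and 6.72%. From 10 to 30 min 50 were higher, all but INCENP and MAD2L1, and 1 was lower, INCENP, beside 16.8% and 16.5%. AURKA was the one member above 1.5-fold at both 30 and 360 min, and by whole locus (95.8, 54.4, 134 and 142 CPM) its ratios there were 1.40 and 1.48.

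The 4 members called at 30 or 360 against 0 min, or higher at 10 min (ASPM, INCENP, NCAPH and MKI67), were not called so over the whole locus. SPC24, described above, was the reverse case, with a lower value at 10 min in its annotated transcripts and an interval that included 1 over the locus, where it was 1.76-fold higher at 360 min (1.53 to 2.02). For 27 members no assembled model drew counts, and 35 had under 10% of locus counts in such models in every library. Of these 35, 29 were lower at 10 min, 31 were higher at 30 than at 10 min, and none was called at 30 or 360 against 0 min. ASPM (chromosome 1, 197084128 to 197146694, minus strand), a spindle pole protein, had annotated values of 2.41, 10.9, 109 and 1.80 CPM. Its whole locus was at 128, 51.9, 137 and 128 CPM, with assembled models holding 98.1%, 57.6%, 19.3% and 94.7% of it. By locus ASPM was therefore 2.47-fold lower at 10 min (2.27 to 2.70) and at 1.07 (1.00 to 1.14) and 1.00 (0.93 to 1.07) of the untreated level later.

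INCENP (chromosome 11, 62123973 to 62153163, plus strand), the scaffold of the chromosomal passenger complex, had annotated values of 57.1, 44.4, 20.3 and 11.0 CPM, falling by 1.49 and 2.38 on the log2 scale at 30 and 360 against 0 min. Its whole locus, of which assembled models held 60.2%, 34.95%, 86.6% and 91.7%, was at 143, 68.2, 152 and 133 CPM. That is 2.10-fold lower at 10 min (1.95 to 2.27), with 1.06 (0.99 to 1.12) and 0.93 (0.87 to 0.99) of the untreated level at 30 and 360 min. NCAPH, a condensin I subunit, had annotated values of 26.3, 16.1, 57.6 and 34.1 CPM, 2.19-fold higher at 30 min (1.93 to 2.48). Its locus was at 72.9, 26.6, 77.9 and 85.4 CPM, 2.74-fold lower at 10 min (2.43 to 3.09) and 1.07-fold (0.98 to 1.17) higher at 30 min. The annotated MKI67 value at 360 min was 0.47 of the untreated one (0.45 to 0.49), but assembled models then held 62.9% of the locus, against 13.0% at 0 min. Over the locus MKI67 was at 534, 239, 525 and 592 CPM, 1.11-fold higher at 360 min (1.08 to 1.14).

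**Figure D3:**
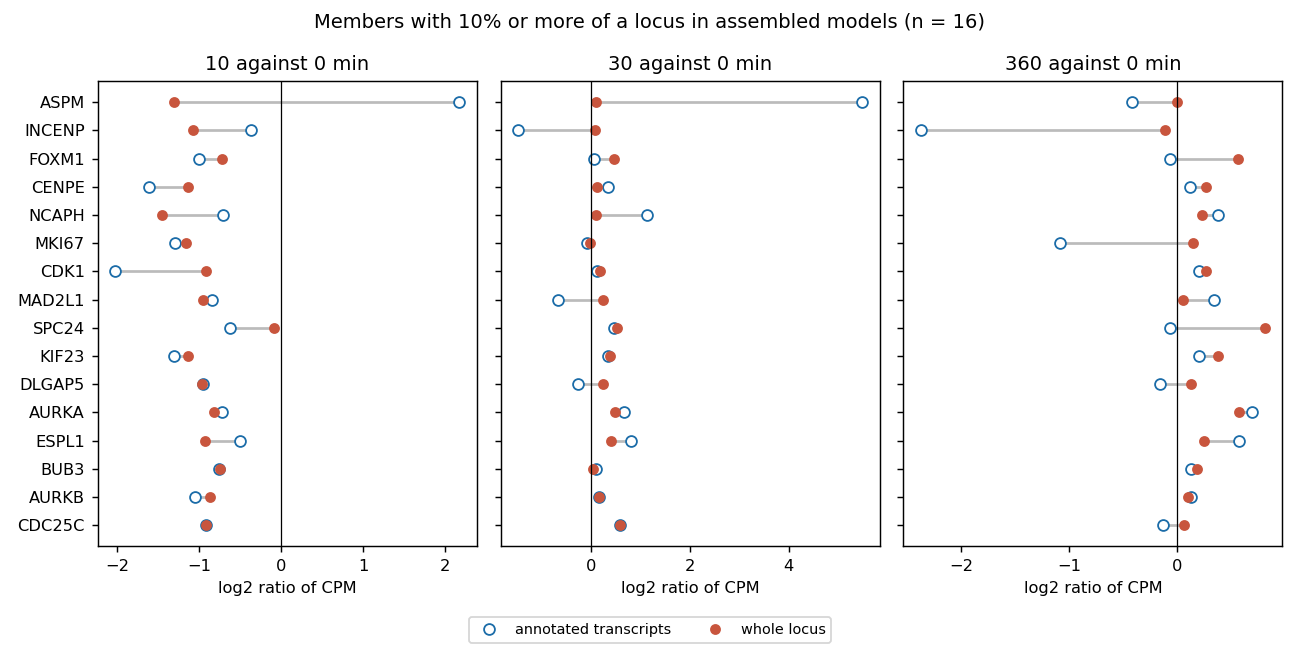
Log2 ratio of CPM against 0 min at 10, 30 and 360 min for the 16 genes with 10% or more of their locus in assembled models in some library, from annotated transcripts (open) and from the whole locus (filled). The outlying open points of ASPM, INCENP, NCAPH and MKI67 have filled partners near -1 to -1.5 at 10 min and near 0 at 30 and 360 min.

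Over the whole locus, with CENPA entered by its annotated transcripts, 37 of 52 were lower and none higher at 10 min. Of all 12166 deposited loci compared, matched to a gene or not, 4.7% were lower and 6.2% higher. Among 12224 genes compared, each by its whole locus where matched, 5.32% were lower and 6.48% higher. No member was called at 30 min (deposited loci 1.4% lower and 1.66% higher) or at 360 min (1.11% and 0.964%). Between 10 and 30 min 46 members were higher and none lower (deposited loci 4.88% and 6.26%). The 10 min library was the lowest for all 51 members with a locus value. Summed locus levels were 6081, 2732, 6702 and 6832 CPM, 2.23-fold lower at 10 min. The leading annotated transcript was the same in all libraries for 36 of 52 members. In CCNA2, which has 2 annotated transcripts, one held 99.2% of counts at 0 min and 99.7% at 360 min, and the other held 99.7% at both 10 and 30 min. The gene's summed level at 30 min was 1.00 of that at 0 min (0.95 to 1.06), so only the split between its transcripts differed.

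Other genes of the same processes that are no members also tended to be lower at 10 min. They were chosen with earlier results of these data known, so they are no independent check. Of 95 listed, all 95 were measured; 46 were lower and none higher at 10 min, with a median log2 ratio of -0.98, beside 6.85% and 7.69% of all genes, and 52 were higher at 30 than at 10 min, beside 6.86%. At 30 against 0 min 2 were lower (FAM83D and HAUS7) and 3 higher (SMC2, CDCA3 and SKA1), beside 3.25% and 3.55% of all genes. At 360 min 1 was lower (FAM83D) and 1 higher (HJURP), beside 3.34% and 3.26%. Over the whole locus SMC2 and CDCA3 at 30 min (ratios of 1.27 and 1.545) and HJURP at 360 min (1.77) were not called. FAM83D and HAUS7 were not matched to a locus. FAM83D, a spindle protein, was at 91.0, 32.5, 35.4 and 37.8 CPM, and HAUS7, of the augmin complex, at 18.9, 8.74, 7.24 and 10.5 CPM. These 6 genes were named after their values were seen. The lowest ratios, with at least 5 CPM, were those of the inner kinetochore gene CENPQ (8.91, 0.90, 8.20 and 8.70 CPM), the chromatin phosphatase subunit CDCA2 (45.1, 8.38, 45.7 and 51.2 CPM) and the kinetochore gene SKA3 (36.4, 8.44, 35.9 and 39.2 CPM). These were 9.91-fold (5.72 to 20.6), 5.38-fold (4.43 to 6.64) and 4.31-fold (3.53 to 5.33) lower, although over the whole locus CENPQ and CDCA2 stood at 0.27 and 0.46 of the untreated level. PKMYT1, an inhibitory kinase of CDK1, was 3.753-fold lower (3.17 to 4.48), the kinetochore gene ZWILCH 3.69-fold (3.25 to 4.22) and ARHGAP11A, a RhoA regulator, 3.11-fold (2.74 to 3.54). By subset, 8 of 13 inner kinetochore genes, 6 of 15 kinetochore assembly genes, 6 of 11 chromosome structure genes, 10 of 19 spindle genes, 4 of 6 cytokinesis genes, 9 of 12 regulators and 3 of 5 genes of MuvB and B-Myb were lower. None of 14 anaphase promoting complex genes was, and their median log2 ratio was -0.33, although 13 of the 14 had a ratio under 1. Within the same pathway, its activator CDC20 and its enzyme UBE2C, both members, were lower by 2.91- and 2.53-fold. UBE2S, which was among the 14, was 1.93-fold lower (1.83 to 2.03), short of the rule.

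**Figure D4:**
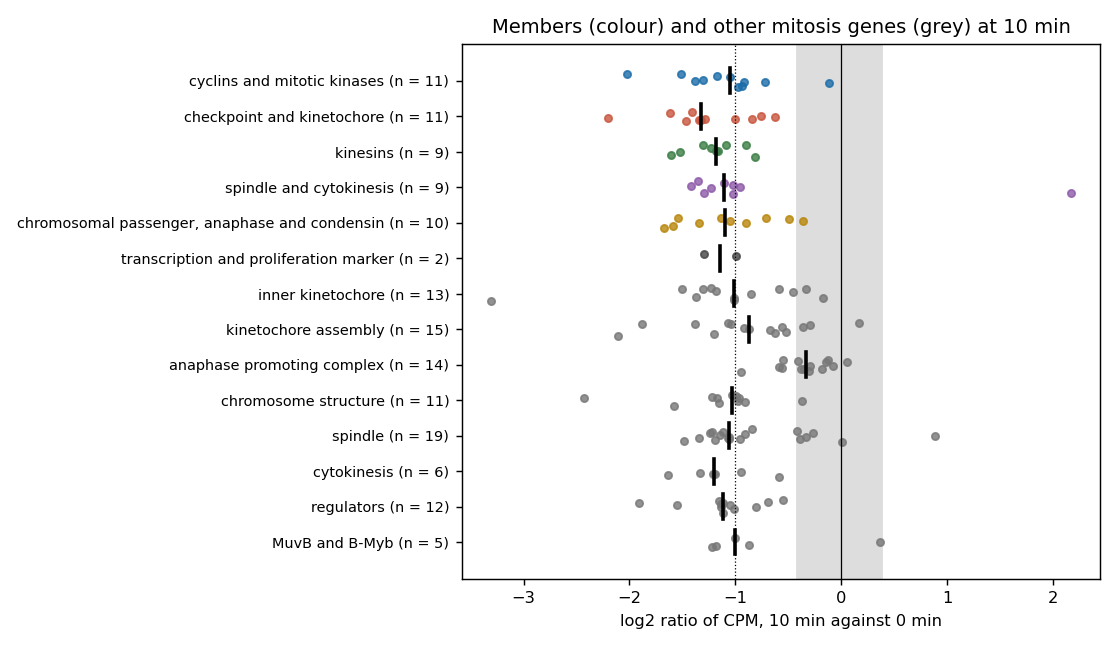
Log2 ratio of CPM at 10 against 0 min for the members by role group (colour) and for the 95 other mitosis genes by subset (grey), with a black bar at each median and the interquartile range of all genes compared shaded. Medians of all sets but the anaphase promoting complex lie between -0.87 and -1.33, and that of the complex is -0.33.

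Across members with a promoter window, the median log2 ratio at 10 min was -1.23 for the 33 with CHR letters and -1.06 for the 11 without. For CCAAT letters the medians were -1.18 in 34 genes with them and -1.11 in 10 without. Of the genes with CHR letters 24 of 33 were called lower, and of those without 6 of 11. For CCAAT letters 23 of 34 genes with them and 7 of 10 without were called lower, beside 6.85% of all genes. For E2F letters the medians went the other way, -1.02 in 3 genes with them and -1.175 in 41 without. The median was -1.23 for the 27 genes with both CHR and CCAAT letters and -1.04 for the 4 with neither. Those 4 were spread widely: CDC25B was 1.08-fold, CDC25C 1.89-fold, KIF2C 2.24-fold and CENPE 3.06-fold lower by annotated transcripts. Over its whole locus CENPE was 2.19-fold lower. These are descriptions of overlapping sets of letters in short windows, with no test.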

How the data were processed

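RNA was sequenced from 4 AC16 libraries, 1 per time. The authors used HISAT2, DESeq2 and GRCh38, per the submitters' processing notes. How reads were counted, with which annotation and whether by strand was not given in the sources used here. Estimated counts of genes and of transcripts, deposited as whole numbers with no scaling for depth or length, were the starting point, and the transcript table was used. It mixes Ensembl transcripts with models from an assembly of the libraries.

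Annotated transcripts were summed per gene with GENCODE 29 and divided by column totals (CPM). Of 215876 Ensembl transcripts, 18608 were outside GENCODE 29 and entered no gene sum. A whole-locus value adds the assembled models of the locus whose counts, less those models, equalled the gene's counts, which held for 49 members; BUB1B was matched as the dominant gene of its locus and ASPM through 1 Ensembl transcript outside GENCODE 29. Of 6019 low values of genes with a single transcript, 30.4% were multiples of 4, where even spacing gives 25%. Intervals used counts divided by 4. This worth of a read pair is an estimate that so small an excess does not establish, and undivided counts were an alternative. Per-length levels divide each transcript's counts by its length and scale the sum as CPM does.

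The size rule was tested on simulated data that held counting error only, so that test does not cover variation between cultures. With 1 library per time, edgeR and DESeq2 supplied scaling factors only. Tools were R 4.3.3, edgeR 4.0.16, DESeq2 1.42.0, Python 3.11.15, numpy 2.4.6, pandas 2.3.3, SciPy 1.17.1 and matplotlib 3.10.9. The members, role groups, other mitosis genes, markers and rules were chosen with earlier results of these data known. Genes described singly were, per group, the 5 largest and the smallest difference at 10 min, any member called at 30 or 360 min, and a fixed set of well-known genes; other members give ranges or a contrast within a complex and were picked with their values known. Alternatives were TMM and median-of-ratios scaling, a 1.5-fold rule, minima of 1 and 20 CPM, undivided counts, whole loci, per-length levels, no filter on low members and the median of the other 3 libraries as baseline.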

Additional observations from a re-analysis of the deposited data

How the results depend on the processing

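No paired analysis was possible because each time has 1 library, and for the same reason no library could be left out. At 10 against 0 min the count of lower members ran from 29 (per length) to 48 (1.5-fold rule) around 35, with 37 under TMM and median-of-ratios scaling, and the median log2 ratio from -1.24 to -1.14. Lower genes among the other mitosis genes ran from 36 to 66 around 46.

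Higher members at 10 min, 1 as reported, became 0 with at least 20 CPM, over whole loci and per length, and 2 with the median of the other 3 libraries as baseline. At 30 against 0 min, lower members changed from 1 to 2 with the 1.5-fold rule and 0 over whole loci, and higher ones from 2 to 4 with the 1.5-fold rule or the other baseline and 0 over whole loci. At 360 min, lower members changed from 2 to 0 over whole loci, and higher ones from 0 to 1 with the 1.5-fold rule or the other baseline. Lower members at 30 against 10 min changed from 1 to 0 over whole loci. An alternative chosen after seeing the data, the 35 members with under 10% assembled counts, gave 0 higher at 10 min, 0 lower and 0 higher at 30 min, 0 lower at 360 min and 0 lower at 30 against 10 min.

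Over whole loci the log2 ratio of ASPM at 10 min turned to -1.30, that of INCENP to 0.080 at 30 min and 1.15 at 30 against 10 min, and that of MKI67 to 0.15 at 360 min. With the other baseline INCENP at 10 min turned to 1.13 and MKI67 at 30 min to 1.00. The median of FOXM1 and MKI67 was -0.94 at 10 min, 0.22 at 30 min and 0.35 at 360 min over whole loci, 0.56 at 30 min with the other baseline, and -0.91 and -0.32 at 10 and 360 min per length. Per length, group medians became -1.17 (checkpoint and kinetochore) and -0.876 (chromosomal passenger, anaphase and condensin) at 10 min and -0.014 (spindle and cytokinesis) at 360 min. That of cyclins and kinases was -1.29 at 10 min with the other baseline. Among members with under 10% assembled counts, the medians were -1.44 (chromosomal passenger, anaphase and condensin) at 10 min and 1.53 (checkpoint and kinetochore) at 30 against 10 min. The cause was not tested, beyond the assembled shares given with each gene.

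Per length, calls at 10 min were lost for BUB1B, NUF2, KIF18A, PRC1, BIRC5 and AURKB, and with at least 20 CPM for CENPA; scaling by TMM or median-of-ratios factors added BUB1 and FOXM1. Every 10 min result rests on 1 library, and intervals do not cover variation between cultures.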
